A study of Homo sapiens with 4 samples.

Results

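The p53 pathway genes described here are 33 genes chosen by symbol as known targets and regulators of p53, a stress-activated transcription factor, and they were read on the 4 arrays of the study. Of the 33 genes, 30 had a named probe set among 17687 genes, and BTG2, FDXR and BBC3 were not analysed here. Cells of the line 22Rv1, a human castration-resistant prostate cancer line, were kept for 3 days in hormone-depleted serum without phenol red, and this was common to every group. Transfection with siControl, a control siRNA, or with siOCT1, which is directed at the octamer-binding transcription factor OCT1, took place 48 h before ethanol vehicle or 10 nM dihydrotestosterone (DHT), an androgen, was given for 24 h. The groups were siControl with vehicle, siControl with DHT, siOCT1 with vehicle and siOCT1 with DHT, with 1 array in each. The comparisons concern the effect of targeting OCT1, the effect of the androgen, and whether the latter differs between the siRNAs. No group was repeated, the level of OCT1 itself was not analysed here, and siOCT1 therefore stands for the transfection as labelled.

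In unstressed cells p53 is held at a low level by the ubiquitin ligase MDM2 and its partner MDM4, and stress signals release it. Free p53 binds DNA as a tetramer and switches on genes that stop the cell cycle, repair DNA, control oxidative state or start cell death, while MDM2 and the phosphatase PPM1D, which are targets themselves, turn the response down again. Many of these genes also answer to other factors, such as FOXO proteins for the cyclin gene CCNG2 and stress-activated factors for GDF15 and GADD45A.

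The p53 response element is built from decamers placed in tandem, and these letters were searched in the promoter windows of RefSeq (GRCh38.p14), which run from 250 bases before to 50 bases after a transcription start. Windows were found for 27 of the 33 genes, several of them with more than 1 start. None was matched for GADD45A, PHLDA3, TNFRSF10A, TNFRSF10B, TP53INP1 and RRM2B. Sequence outside the windows was not searched, so a gene not named below may still have an element elsewhere. The decamer reads the same on both strands in its consensus, and the octamer was searched on both. The decamer without a mismatch stood in the windows of 6 genes (PLK2, FAS, AEN, DDB2, SESN1 and FDXR), that is in 6 of 27 genes beside 8.06% of all genes with a window. A full element of 20 bases without spacer and with up to 2 mismatches was found for 4 of 27 genes (MDM2, FAS, AEN and DDB2), beside 0.82% of all genes. The genes were chosen as known targets and regulators of p53, so shares above those of all genes may come from that choice alone. The octamer ATGCAAAT, the motif bound by OCT1, was in none of the 38 windows of these genes on either strand and in 1.77% of all 35116 windows. The 4 stretches below are the 130 bases before a start of genes whose signals are described further on, with the decamer (SESN1, AEN, FAS) or the full element (MDM2) in capitals. They are matches of letters only and say nothing about binding in these cells.
SESN1, chr6:109008989-109009118, minus strand: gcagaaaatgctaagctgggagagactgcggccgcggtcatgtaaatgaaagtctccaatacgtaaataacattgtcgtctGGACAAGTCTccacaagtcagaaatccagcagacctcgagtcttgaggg
AEN, chr15:88621210-88621339, plus strand: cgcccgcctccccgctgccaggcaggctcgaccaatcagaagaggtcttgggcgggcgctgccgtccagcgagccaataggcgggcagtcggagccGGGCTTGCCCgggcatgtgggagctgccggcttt
FAS, chr10:88991301-88991430, plus strand: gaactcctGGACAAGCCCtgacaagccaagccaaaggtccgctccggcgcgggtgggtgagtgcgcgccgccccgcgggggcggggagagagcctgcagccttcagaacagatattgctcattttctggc
MDM2, chr12:68808887-68809016, plus strand: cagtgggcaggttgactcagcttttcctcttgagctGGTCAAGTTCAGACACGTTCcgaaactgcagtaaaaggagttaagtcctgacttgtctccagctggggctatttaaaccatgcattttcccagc

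Values are log2 signals on the scale the authors deposited. Genes whose brightest array passed 6.51 are called measured, and the background of an array was the 95th percentile of its negative control probe sets, between 6.62 and 7.39. Of the 30 genes, 24 were measured, 20 lay above background on all 4 arrays and 7 below it on all 4. TP53I3 and PHLDA3 passed the measured level only through siOCT1 arrays and could therefore only appear as higher there. The words "rose" and "fell" are used of genes called at an adjusted p under 0.05 by a limma fit of siRNA and ligand over the 4 arrays, adjusted over all 8843 measured genes. That fit has 1 residual degree of freedom, the siRNA-by-ligand difference, so its p-values do not contain the spread between repeat cultures. The fit adds 5.853 prior degrees of freedom from all measured genes. Standard errors (SE) and p-values therefore rest mostly on a spread shared over genes.

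With siOCT1, 7 of the 24 measured p53 pathway genes rose and none fell, beside 9.1% of all measured genes that rose and 15.3% that fell. The genes that rose were TP53I3, CCNG1, SESN1, CDKN1A, TP53INP1, CCNG2 and PERP, with estimates from 1.02 to 3.27, the highest of which (TP53I3) rests on siControl values below background. The other 17 had estimates from -0.45 to 0.80. Without adjustment, 10 genes had p under 0.05 for a higher and 0 for a lower signal, beside 16.2% and 23.1% of all measured genes. With the arrays centred on the positive control probe sets, 13.8% of all measured genes rose and 15.2% fell, and RRM2B joined the 7 genes. Of the 20 genes above background on all arrays, 6 rose, and TP53I3 was the exception that lay below background without siOCT1. A fit of only the genes above background on all arrays called 10.1% of them higher and 14.7% lower. In that fit 6 of the 20 were higher and 0 lower. Both siOCT1 signals exceeded both siControl signals in 13 of the 24, beside 27.0% of all measured genes, and the reverse held for MDM4, beside 34.5%. At 1.5-fold or more in both ligand states, 8 were higher and 0 lower, where 12.2% and 18.7% of all measured genes were. In vehicle alone this held for 9 higher and 1 lower (22.9% and 28.7% of all measured genes), in DHT alone for 12 higher and 1 lower (18.9% and 26.0%), and no gene passed 1.5-fold in opposite directions (0.961%). Negative control probe sets passed in both ligand states at 10.6% higher and 8.01% lower. In vehicle alone their shares were 31.9% and 24.2%, and in DHT alone 29.1% and 27.8%. The controls were not filtered by signal and lie mostly below background, so their shares describe dim signals and not the brighter genes. The median difference over the 24 was 0.37 in vehicle and 0.50 in DHT, beside -0.06 and -0.07 over all measured genes.

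**Figure D1:**
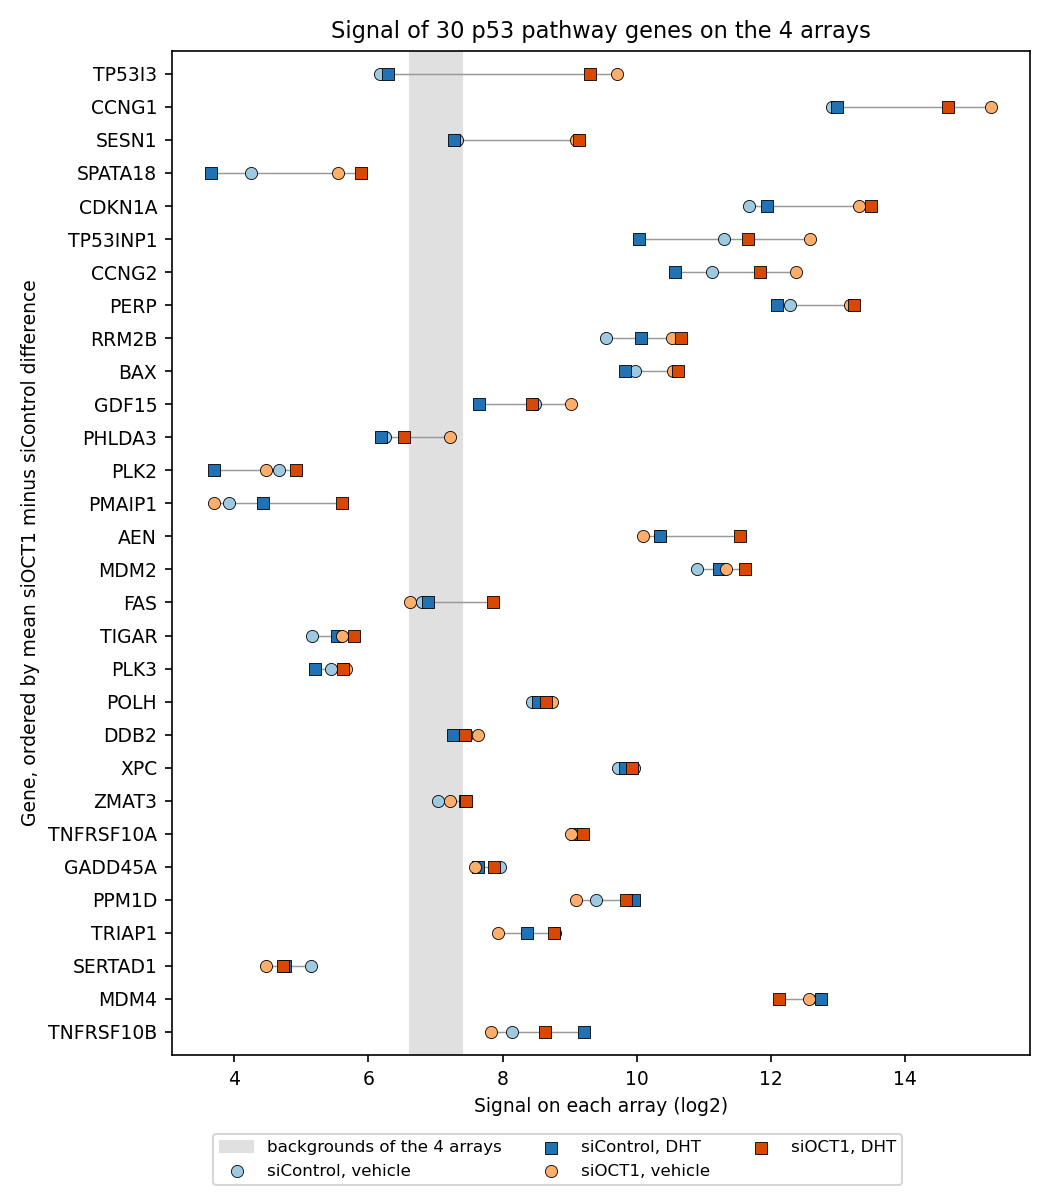
Signal (log2) of the 30 p53 pathway genes with a probe set on each of the 4 arrays, 1 point per array (circles vehicle, squares DHT), with genes ordered by the mean siOCT1 minus siControl difference and the range of the 4 array backgrounds in grey. The orange siOCT1 points of TP53I3, CCNG1, SESN1, CDKN1A and PERP lie to the right of both blue siControl points, and 7 genes lie below background throughout.

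Among the genes of cell cycle arrest and growth control, 3 of 7 measured rose and 0 fell, beside 9.1% and 15.3% of all measured genes. CDKN1A, which encodes p21, the inhibitor of cyclin-dependent kinases that carries much of the p53 arrest, had signals of 11.67 in vehicle and 11.94 in DHT with siControl, and of 13.32 and 13.48 with siOCT1. Both siOCT1 arrays were high and the groups did not overlap, with folds of 3.13 in vehicle and 2.92 in DHT (estimate 1.60, SE 0.21, adjusted p = 0.00459 by limma). CCNG1, cyclin G1, which recruits a phosphatase to MDM2, stood at 12.91 and 12.98 with siControl and at 15.28 and 14.64 with siOCT1. Its siOCT1 signals were 5.17-fold and 3.16-fold above the siControl ones, with the wider gap in vehicle (estimate 2.01, SE 0.23, adjusted p = 0.00319 by limma). CCNG2, cyclin G2, had 11.12 and 10.57 with siControl and 12.38 and 11.83 with siOCT1, a difference of 1.26 in either ligand (SE 0.23, adjusted p = 0.0119 by limma), so that all siOCT1 values were again the higher ones.

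The remaining arrest genes were not called. GDF15, a secreted stress cytokine, had 8.48 and 7.65 with siControl and 9.02 and 8.43 with siOCT1, and here the siRNA groups overlapped, since the siControl value in vehicle exceeded the siOCT1 value in DHT (estimate 0.66, adjusted p = 0.116 by limma). GADD45A, a growth arrest gene induced by DNA damage, stayed between 7.59 and 7.96 on all arrays. ZMAT3, an RNA-binding regulator induced by p53, lay between 7.04 and 7.45, close to background. PHLDA3, a membrane-bound repressor of AKT, was measured at 6.25 and 6.19 with siControl and at 7.22 and 6.53 with siOCT1, below the background of each array. SERTAD1, PLK2 and PLK3 lay below background on every array, at 5.66 or less.

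**Figure D2:**
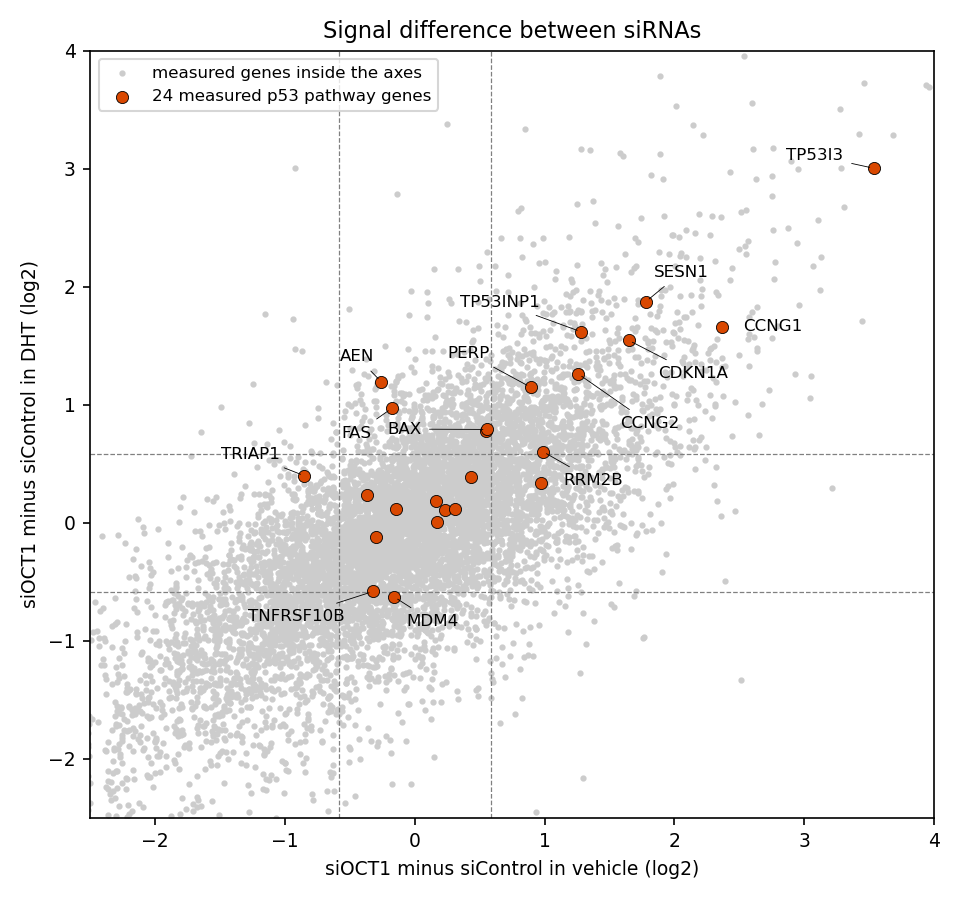
Difference between siOCT1 and siControl (log2) in vehicle, on the horizontal axis, and in DHT, on the vertical axis, for the 24 measured p53 pathway genes in orange over the measured genes in grey, with dashed lines at 1.5-fold and genes beyond the axes not drawn. TP53I3, at 3.54 in vehicle, lies farthest to the upper right of the orange points, none of which lies past both lines at the lower left, and AEN, FAS and TRIAP1 lie to the upper left.

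Of the 8 measured genes of cell death, 2 rose and 0 fell, beside 9.1% and 15.3% of all measured genes. TP53INP1, a nuclear protein that promotes p53-dependent death and autophagy, had 11.30 in vehicle and 10.04 in DHT with siControl, and 12.58 and 11.66 with siOCT1. It was high with siOCT1 and lower with DHT under either siRNA, and the siRNA groups did not overlap (estimate 1.45, SE 0.24, adjusted p = 0.00894 by limma). PERP, a junction protein of epithelia that p53 also induces, rose from 12.28 and 12.09 to 13.17 and 13.24 (estimate 1.02, SE 0.22, adjusted p = 0.0182 by limma). BAX, the pore-forming effector of mitochondrial death, had 9.98 and 9.82 with siControl and 10.54 and 10.61 with siOCT1, without overlap, but missed the threshold (estimate 0.67, adjusted p = 0.0925 by limma).

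The death receptor genes showed no such separation. TNFRSF10A, a receptor for the death ligand TRAIL, stayed between 9.03 and 9.19 on all arrays. TNFRSF10B, the other signalling TRAIL receptor, had 8.14 and 9.21 with siControl and 7.82 and 8.63 with siOCT1, so it followed the ligand more than the siRNA (siRNA estimate -0.45, adjusted p = 0.255 by limma). FAS, the receptor of FAS ligand, was above background on 2 arrays, at 6.80 in vehicle with siControl and 7.86 in DHT with siOCT1, and below it at 6.89 and 6.62 on the others. In DHT it was at least 1.83-fold higher with siOCT1, a bound set by the background of the siControl array.

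AEN, a nuclease that degrades DNA during apoptosis, had 10.35 and 10.35 with siControl, 10.09 with siOCT1 in vehicle and 11.54 with siOCT1 in DHT, so that 1 array stood above the other 3. TRIAP1, an inhibitor of caspase activation, was lowest in siOCT1 with vehicle, at 7.92, and lay at 8.77, 8.37 and 8.77 on the siControl arrays and in siOCT1 with DHT. PMAIP1, which encodes the BH3-only protein NOXA, and SPATA18, which acts in mitochondrial quality control, lay below background on all arrays. No fold is given for either gene because of the low signal.

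Genes of DNA repair and nucleotide supply were not called. RRM2B, the p53-inducible small subunit of ribonucleotide reductase, had 9.53 and 10.06 with siControl and 10.52 and 10.66 with siOCT1, differences of 0.99 and 0.60 (adjusted p = 0.0633 by limma). It passed the threshold with arrays centred along expression by loess, at an adjusted p of 0.0428, or on the positive controls, at 0.0346. XPC, which recognises damaged DNA, stayed between 9.73 and 9.96, and DDB2, which does so for ultraviolet lesions, between 7.26 and 7.64. POLH, a polymerase that copies past such lesions, lay between 8.43 and 8.74. The values of these 3 genes spanned less than 0.5 over the 4 arrays.

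Both measured genes of redox control rose, beside 9.1% of all measured genes, and TP53I3 could only appear as higher. TP53I3, also called PIG3, a quinone oxidoreductase, had 6.16 and 6.30 with siControl, below background on both arrays, and 9.70 and 9.30 with siOCT1. The siOCT1 signal exceeded the siControl background at least 8.46-fold in vehicle and at least 4.96-fold in DHT. Its limma estimate of 3.27 (SE 0.30, adjusted p = 0.0017) rests on those dim values and on a gene that passed the measured level through siOCT1 alone. With values raised to the highest background the estimate was 2.11 (adjusted p = 0.0129), beside 2.01 for CCNG1. SESN1, sestrin 1, which restrains the growth kinase mTORC1, read 7.32 and 7.27 with siControl and 9.10 and 9.14 with siOCT1. The values of the same siRNA lay within 0.1 of each other, and the folds were 3.44 in vehicle and 3.67 in DHT (estimate 1.83, SE 0.27, adjusted p = 0.00615 by limma). TIGAR, a phosphatase that slows glycolysis, lay below background on all arrays, between 5.16 and 5.78.

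The negative regulators of p53 were not called. MDM2, whose promoter element is printed above, had 10.89 and 11.22 with siControl and 11.33 and 11.61 with siOCT1 (estimate 0.41, SE 0.23, adjusted p = 0.237 by limma), so both siOCT1 signals were the higher ones, by 0.43 and 0.39. MDM4, which blocks the activation domain of p53, had 12.72 and 12.74 with siControl and 12.56 and 12.11 with siOCT1 (estimate -0.39, adjusted p = 0.25). PPM1D, a phosphatase that ends the p53 response, was at 9.39 and 9.96 with siControl and 9.09 and 9.84 with siOCT1 (estimate -0.21, adjusted p = 0.574).

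Further genes of the pathway were read from lists of known targets and regulators, each taken whole. Their counts stand beside the 9.1% of all measured genes that rose and the 15.3% that fell. These lists, and those of the next paragraph, were chosen with earlier results of these data known. Their counts are therefore a description and not independent support. Of 31 measured other p53-induced genes, 8 rose and 4 fell, with a median estimate of 0.25 beside -0.06 over all measured genes. SUSD6 and IER5 passed the measured level only through siOCT1 arrays and could only appear as higher. Of the 25 genes above background on all arrays, 5 rose and 3 fell. The fit of only such genes called 10.1% of them higher and 14.7% lower. EDA2R, a receptor of the tumour necrosis factor superfamily, rose, with differences of 1.39 in vehicle and 2.54 in DHT. For SUSD6 the bounds were at least 3.04-fold in vehicle and at least 1.68-fold in DHT. IER5 was at least 1.80-fold higher in vehicle, while both of its DHT values were below background. The helicase gene ASCC3 rose by 1.92 and 0.79, and RPS27L, a ribosomal protein variant that p53 induces, by 1.04 and 1.63. TNFRSF10D, a decoy receptor for TRAIL, fell, with differences of -1.63 and -1.42. Among 19 measured regulators, 2 rose and 2 fell, with a median of 0.12, and both shares were close to or below those of all measured genes. The kinase HIPK2, which phosphorylates p53, rose by 1.08 and 1.14, and TP53BP2, an enhancer of p53-dependent death, by 0.80 and 0.94. The checkpoint kinase CHEK1 fell, with differences of -1.84 and -1.41, and PPP1R13L, an inhibitor of p53, was at least 1.41-fold lower in DHT. PPP1R13L passed the measured level only through siControl arrays and could only appear as lower.

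Of 16 measured other growth arrest genes, 6 rose and 1 fell, with a median estimate of 0.61, and all 7 of these lay above background on all arrays. CDKN1B, which encodes the cyclin-dependent kinase inhibitor p27, rose by 1.48 and 1.74, the repressor HBP1 by 1.98 and 1.28, and TOB2, an antiproliferative relative of BTG2, by an estimate of 1.52. BTG3 rose by 1.31 and 0.79 and the transcription factor gene KLF6 by 0.95 and 0.86, while the pocket protein gene RBL1 fell, with differences of -2.07 and -1.35. Cell cycle genes that p53 is known to lower through p21 and the DREAM repressor complex fell in 24 of 24 cases, with a median of -2.07. Of these, CDC25A, CDC25C, AURKB and MYBL2 passed the measured level only through siControl arrays and could only appear as lower. The 18 above background on all arrays all fell, where the fit of only such genes called 14.7% of them lower. Cyclin A gene CCNA2 had differences of -4.01 and -3.74 and CDC20, an activator of mitotic proteolysis, had -3.67 and -3.32, and the phosphatase gene CDC25A was at least 1.09-fold lower in DHT, its siOCT1 values lying below background. Their part in the signals of the p53 pathway genes was not tested.

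**Figure D3:**
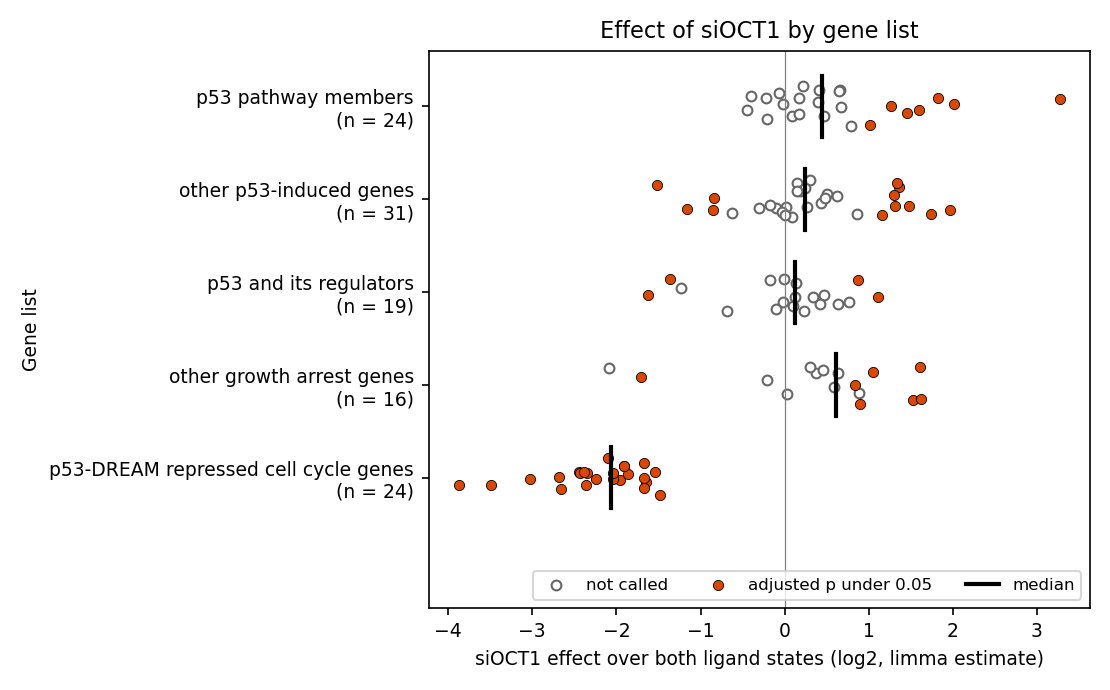
Estimated effect of siOCT1 over both ligand states (log2, limma) for the measured genes of 5 lists, 1 point per gene, with called genes filled, others open, and the list median as a bar. The p53 pathway genes have a median of 0.44 with 7 filled points, all right of 0, and the 24 cell cycle genes lie left of 0.

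Markers of the labelled cell type were present, with 7 of 10 luminal epithelial markers above background on all arrays, among them FOXA1 and EPCAM. The others, KLK2, KLK3 and SLC45A3, were each above it on 2 arrays. KRT8 and KLK2 fell with siOCT1, and no marker of the list rose. Both siOCT1 values of KLK2, 4.13 in vehicle and 6.78 in DHT, lay below background, and in DHT it was at least 2.75-fold lower. The androgen receptor gene was not analysed here. Of 13 markers of basal, stromal, endothelial and immune cells, 11 lay below background on every array, among them PTPRC, PECAM1, KRT5 and CD3E, and COL1A2 passed it on 1 array. Their summed linear signal was 306.3 and 318.8 in siControl and 475.1 and 414.4 in siOCT1. The called gene of this list was ACTA2, at 5.62 and 5.90 in siControl, below background, and at 7.76 and 7.37 in siOCT1, at least 2.19-fold and 1.30-fold higher. It passed the measured level only through siOCT1 arrays and could only appear as higher, and its part in the results was not tested. Fewer cells of a type and less RNA per cell cannot be told apart in such bulk samples.

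The effect of DHT on the p53 pathway genes was read from the same fit. The limma fit called 0 of the 24 as higher and 0 as lower with DHT, where 0.679% and 0.305% of all measured genes were called. Without adjustment 2 were higher and 2 lower at p under 0.05, beside 7.77% and 5.73% of all measured genes. The median difference was 0.01 in siControl and 0.07 in siOCT1, beside -0.03 and 0.02 over all measured genes. At 1.5-fold or more under both siRNAs, 1 gene was higher and 2 were lower, beside 4.86% and 4.37% of all measured genes. In siControl alone 1 was higher and 2 lower (15.8% and 12.8%), in siOCT1 alone 5 were higher and 4 lower (14.1% and 11.8%), and 0 passed in opposite directions (1.4%). Negative control probe sets, not filtered by signal, passed under both siRNAs at 7.68% higher and 7.03% lower.

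The gene higher with DHT under both siRNAs was TNFRSF10B, by 1.07 in siControl and 0.81 in siOCT1 (estimate 0.94, SE 0.27, adjusted p = 0.206 by limma). PPM1D had 0.57 and 0.75 (adjusted p = 0.332). TP53INP1 was lower with DHT, by differences of -1.26 in siControl and -0.93 in siOCT1 (estimate -1.09, SE 0.24, adjusted p = 0.111 by limma), and it passed the threshold with arrays centred on the positive controls, at an adjusted p of 0.0461. GDF15 had -0.82 and -0.59 (adjusted p = 0.324). CCNG2, at -0.55 and -0.54, lay just inside the 1.5-fold line under both siRNAs. CDKN1A and SESN1 had differences of 0.27 and -0.05 in siControl and 0.17 and 0.04 in siOCT1.

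**Figure D4:**
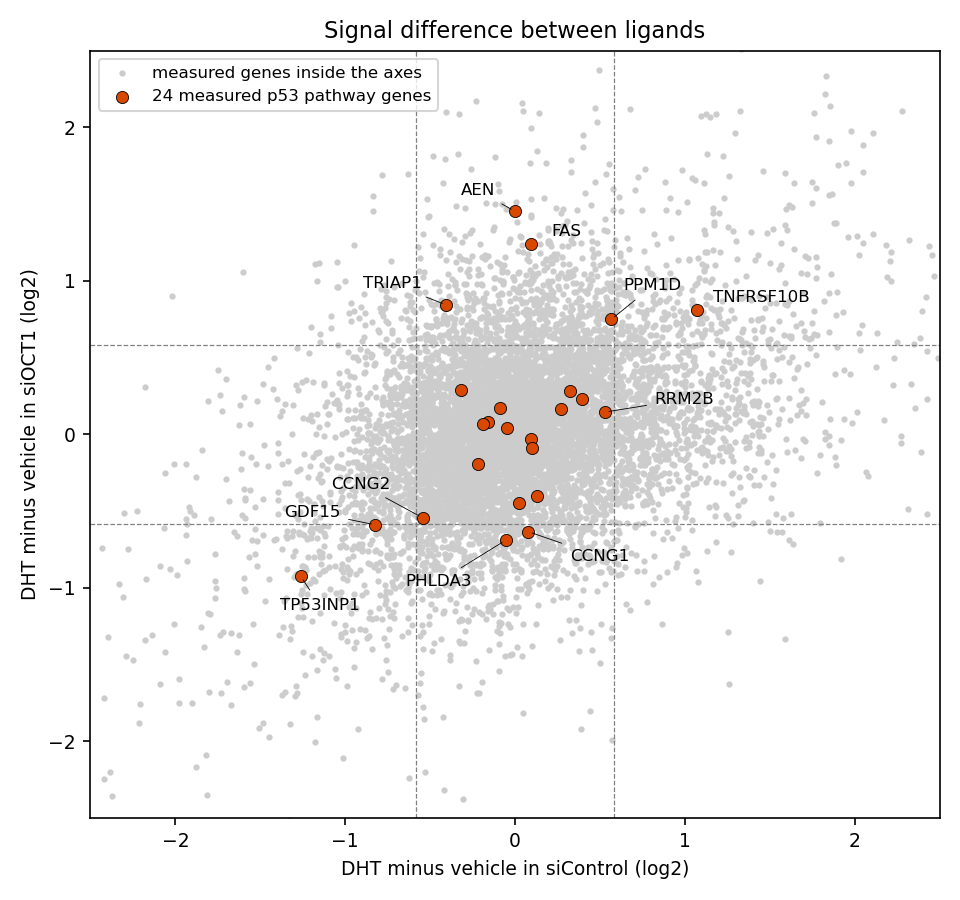
Difference between DHT and vehicle (log2) in siControl, on the horizontal axis, and in siOCT1, on the vertical axis, for the 24 measured p53 pathway genes in orange over the measured genes in grey, with dashed lines at 1.5-fold and genes beyond the axes not drawn. TNFRSF10B lies past both lines at the upper right and TP53INP1 and GDF15 past both at the lower left, while AEN and FAS lie above the upper line near 0 on the horizontal axis.

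The response to DHT differed between the siRNAs by 1.5-fold or more in 6 of the 24 genes, each a single value that cannot be tested. The signed DHT difference was higher in siOCT1 for 4 of them, beside 17.5% of all measured genes, and lower for 2, beside 18.0%. Higher and lower refer here to the signed value and not to the size of the response. AEN had a DHT difference of 0.00 in siControl and 1.45 in siOCT1, and TRIAP1 had -0.41 and 0.84. For FAS, with siControl signals near background, the bound on the siOCT1 response was at least 1.38-fold. GADD45A went from -0.32 to 0.29. CCNG1 had 0.08 in siControl and -0.63 in siOCT1, and PHLDA3 changed by -0.64 with all values below background. Among the negative control probe sets, not filtered by signal, 31.9% passed the same size in the higher and 33.3% in the lower direction.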

How the data were processed

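Total RNA of 4 cultures was labelled for Affymetrix whole-transcript arrays, per the labels' protocols. Per the submitters' processing notes, the authors used RMA and Affymetrix Expression Console, and the deposited table holds 1 log2 signal per probe set and array. Versions and genome build are not given in the sources used here. The log base was read from the values, and 327 to 379 values per array exceed 16, so folds hold on the deposited scale. RMA equalises the distributions of arrays and so hides a global change in RNA.

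The platform annotation named 1 gene for 17709 of 24351 probe sets and several for 0, and the brightest probe set of a gene was used. Where only the brighter array of a pair passed its background, the fold is a lower bound against the background of the dimmer array. Effects were fitted with limma 3.58.1 (siRNA + ligand, intensity trend, Benjamini-Hochberg) in R 4.3.3. The code was also run on simulated data with equal noise for every gene and no siRNA-by-ligand difference. That setting differs from these data and cannot show how well the p-values hold here. The rest was done with Python 3.11.15, numpy 2.4.6 and pandas 2.3.3. From each further list up to 6 called genes with the largest mean siRNA difference are named, or 3 for cell cycle genes. Members, lists and alternatives were chosen with earlier results of these data known. Printed promoters were chosen after their matches were seen. Alternatives covered the size rule, filters, probe set averaging, centring, background, an offset of 32 and the moderation.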

Additional observations from a re-analysis of the deposited data

Results flagged for a closer look

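AEN, TRIAP1 and GADD45A, which lay above background on all arrays, had opposite directions in the matched comparisons, both by 0.2 or more on the log2 scale. None of these differences was tested, and the share of all measured genes that pass this rule was not computed. At the larger 1.5-fold size, 17.0% of negative control probe sets, not filtered by signal, had opposite directions for the siRNA and 17.6% for DHT. Of all measured genes 0.961% and 1.4% did. AEN stood at -0.26 with siOCT1 in vehicle and at 1.20 in DHT. TRIAP1 stood at -0.85 with siOCT1 in vehicle and at 0.40 in DHT, which is the same 4 values as its DHT difference of -0.41 in siControl and 0.84 in siOCT1. GADD45A had siRNA differences of -0.37 and 0.24 and DHT differences of -0.32 and 0.29. With 1 array per group, each rests on single arrays.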

How the results depend on the processing

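The 7 genes that rose with siOCT1 were called again without a filter, with averaged probe sets, loess centring, centring on positive controls, values raised to the highest background, an offset of 32, and limma without trend or with robust moderation. Genes at the raised background on all arrays were left out of that fit. With a filter above background on all arrays, 6 of them were called, and TP53I3 was left out by construction. SPATA18, which lay below background on all arrays, was called in addition without a filter, and RRM2B with either centring. No alternative called a p53 pathway gene lower with siOCT1, and with the 2-fold rule 6 genes were higher in both ligand states. Centring on the positive controls moved the median of all measured genes by 0.21 for the siRNA in vehicle and by 0.15 for DHT in siControl. The calls over all genes changed from 805 higher and 1353 lower to 1218 and 1344. The median siRNA difference of the p53 pathway genes lay 0.43 above that of all measured genes in vehicle, 0.23 above without a filter and 0.33 above with values raised to the highest background. For DHT, centring on the positive controls gave 1 gene lower by limma (TP53INP1) and 2 genes higher at 1.5-fold under both siRNAs. The 2-fold rule left 0 higher and 0 lower, and the offset 1 lower. No paired analysis was possible because each group has 1 array and the labels give no replicate numbers; the additive fit itself compares the siRNAs within each ligand state. Genes near background, 10 of the 30 on at least 1 array, are limited by signal.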

Other observations

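The pocket protein genes RBL1 and RBL2, whose products take part in cell cycle repressor complexes, moved in opposite directions with siOCT1. RBL1 fell (estimate -1.71, adjusted p = 0.00994 by limma) and RBL2 rose (estimate 0.83, adjusted p = 0.0466 by limma), with RBL2 signals of 10.46 and 10.05 in siControl and 11.29 and 10.89 in siOCT1. This pair was chosen after its values were seen.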
